A study of Mus musculus with 4 samples.

Results

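Translation initiation and elongation factors are the proteins that assemble ribosomes on mRNA, find the start codon and move the ribosome along the message. Their mRNAs were followed in RNA precipitated from 4T1 cells, a metastatic mammary carcinoma line of BALB/c mice. Members were all gene symbols that begin with Eif1 to Eif6 or with Eef1 or Eef2, without the eIF2 kinases (Eif2ak) and the eIF4E-binding proteins (Eif4ebp). The rule gave 59 of 12967 gene symbols, of which 46 were Eif symbols and 13 were Eef symbols. The members had 105 transcript rows, which were summed per symbol, and 40 members had 1 row each.

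The study asked how altered lipid metabolism bears on the mRNAs held by Caprin-1, a cytoplasmic protein that binds RNA and takes part in stress granules. Its groups were the Caprin-1 precipitate of cells that stably express an shRNA to Cers4 (shCerS4), the Caprin-1 precipitate of cells with the control shRNA (shSCR), and the IgG precipitates of shCerS4 and of shSCR cells. Cers4 encodes a ceramide synthase, which joins fatty acids to sphingoid bases. All 4 groups are the same line kept in medium with puromycin, each group is 1 library, and whether a line with an shRNA is 1 clone or a pool was not stated. With 1 library a group, no difference could be set against replicate spread, no test was made, and every value below describes these 4 libraries.

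In initiation, eIF2 brings the initiator tRNA to the small ribosomal subunit, eIF3 serves as a scaffold on that subunit, and eIF4 factors bind the cap and unwind the leader of the mRNA. eIF1, eIF1A, eIF5 and eIF5B act on start codon choice and on joining of the large subunit, and eIF2B recharges eIF2 with GTP. In elongation, eEF1A delivers aminoacyl-tRNAs and eEF2 moves the ribosome by 1 codon. Many mRNAs of this machinery begin with a C and a run of pyrimidines at the cap, the feature through which mTOR signalling controls their translation.

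The estimated depth of the Caprin-1 precipitates was 24.7 M reads in shCerS4 and 27.0 M in shSCR cells, and that of the IgG precipitates 19.7 M in shCerS4 and 19.8 M in shSCR cells. Values are in CPM, the reads of a gene scaled to a fixed library total, and 3 reads corresponded to between 0.111 and 0.152 CPM. All 8 epithelial markers listed were measured, with summed levels of 6250 CPM in shCerS4 Caprin-1, 9891 CPM in shSCR Caprin-1, 4183 CPM in shCerS4 IgG and 5768 CPM in shSCR IgG. Summed levels of fibroblast markers (4 of 6 with values) were 20.1 to 66.9 CPM, of immune markers (1 of 7) 14.6 to 49.1 CPM, and of endothelial markers (1 of 4) at 0 in 3 libraries and 0.666 CPM in shSCR IgG. Their part in the results was not tested. Cers4 was not analysed here, so the knockdown was not checked against its own mRNA. In precipitates of a whole culture, fewer cells with an mRNA and less of it per cell cannot be told apart.

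The starts of 7 members are shown because many mRNAs of this machinery are known to begin with pyrimidines. Each stretch covers the 10 bases before an annotated RefSeq start and the 20 bases from it, on the gene's own strand in GRCm38.p6. Capitals mark a C with at least 4 further C or T bases after it, taken from the nearest such C within 5 bases of the annotated start. C or T bases directly before the capitals extend the run and are not marked. A further run in the same stretch is not marked either. The first 5 hold such a run within 5 bases of the annotated start and the last 2 do not. The Eef2 stretch holds one further on, at its end, and annotated starts can miss the true cap site. Among the 47 members with a RefSeq promoter stretch 11 (23.4%) held a run, so these 7 do not reflect its share.
Eef1a1, chr9:78481705-78481734, minus strand: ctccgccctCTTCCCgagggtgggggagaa
Eif2s3x, chrX:94212632-94212661, minus strand: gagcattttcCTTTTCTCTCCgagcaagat
Eif3f, chr7:108934405-108934434, plus strand: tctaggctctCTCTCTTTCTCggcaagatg
Eif3l, chr15:79075213-79075242, plus strand: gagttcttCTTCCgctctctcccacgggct
Eif2b2, chr12:85219471-85219500, plus strand: ccgagcggaagttgaCCTCTCTCggcccgg
Eef2, chr10:81176621-81176650, plus strand: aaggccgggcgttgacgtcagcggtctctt
Eif3a, chr19:60790674-60790703, minus strand: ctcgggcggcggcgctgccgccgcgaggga

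Translation factor mRNAs took 4.72% of reads in shCerS4 Caprin-1 and 3.81% in shSCR Caprin-1, and 4.00% in shCerS4 IgG and 3.14% in shSCR IgG (exact binomial intervals within 0.01 percentage points, counting error only). Most of that difference came from 2 elongation factors. Eef1a1 and Eef2 together took 2.87% and 2.02% of reads in the shCerS4 and shSCR Caprin-1 precipitates, and 2.31% and 1.59% in the shCerS4 and shSCR IgG precipitates. The other 57 members summed to 1.84%, 1.79%, 1.69% and 1.56% of reads in the same order, so without this pair the 4 libraries lay closer together. A share of reads is not corrected for transcript length and does not rank genes by molecules.

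**Figure D1:**
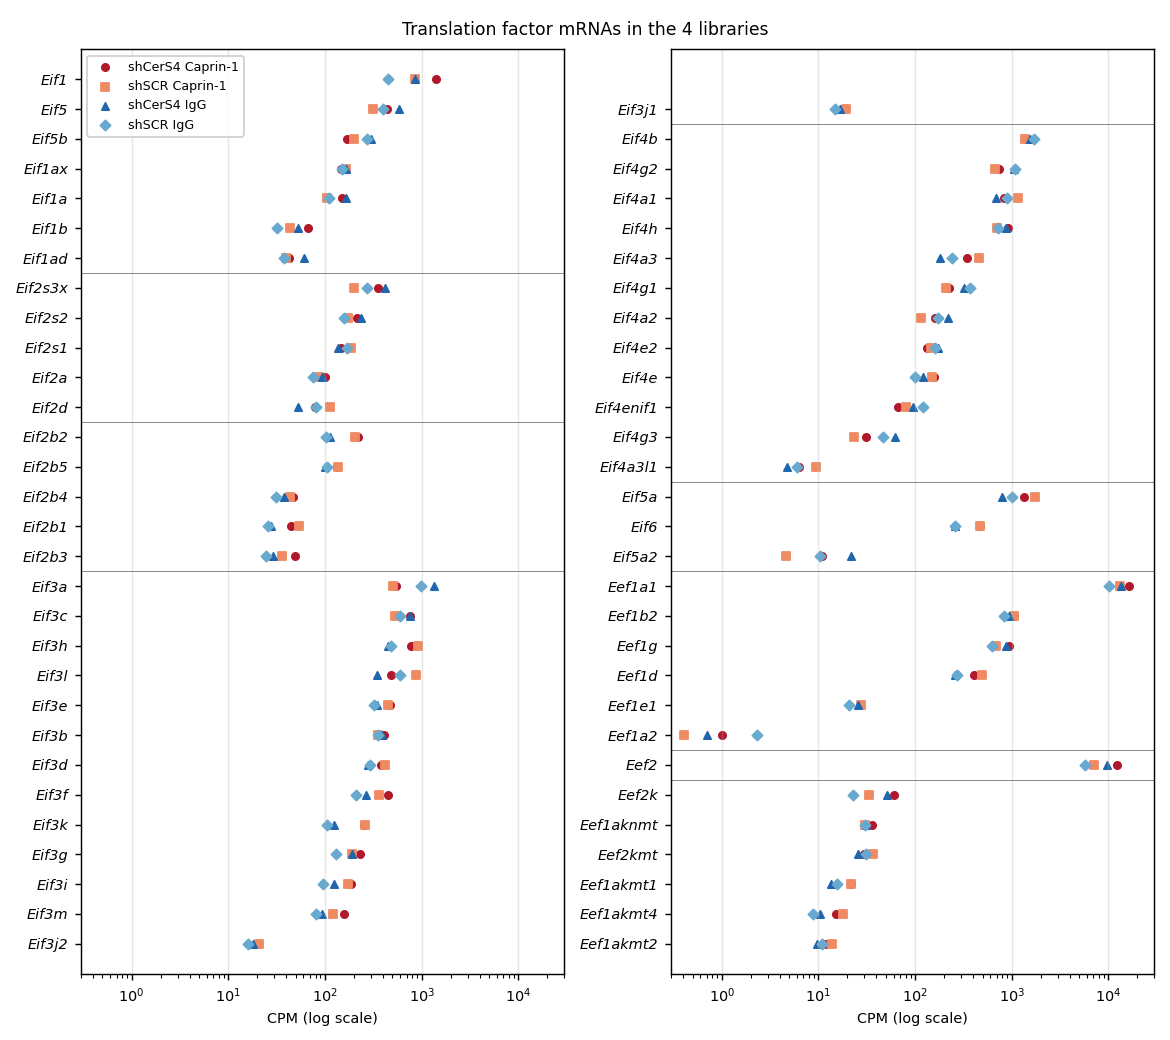
Level of each of the 59 members in the 4 libraries (x axis, CPM on a log scale), with members grouped by role from top to bottom and 1 symbol per library. Eef1a1 and Eef2 lie between 5721 and 16383 CPM, and Eef1a2 is the only member below 5 CPM on average.

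Of the 59 members, 58 had a mean of at least 5 CPM and were compared among 10283 such genes. The exception was Eef1a2, the muscle and neuron form of eEF1A, with 1.01 and 0.407 CPM in the shCerS4 and shSCR Caprin-1 precipitates and 0.712 and 2.32 CPM in the shCerS4 and shSCR IgG precipitates, which correspond to 25, 11, 14 and 46 reads. Log2 ratios carry a 95% counting interval, computed from the reads alone. Since amplified copies were not marked by barcodes, it leaves out the error of amplification as well as any spread between cultures. A member was called past 1.5-fold or 2-fold when its ratio was at least that large and its interval excluded 0.

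The primary question of the study was the difference between shCerS4 and shSCR cells in what Caprin-1 precipitated. Between the Caprin-1 precipitates the members had a median log2 ratio of 0.08, against 0.15 over all genes compared. Past 1.5-fold, 6 of 58 members (10.3%) were higher in shCerS4, where 19.2% of all genes were, and 1 (1.72%) was lower, where 10.9% of all genes were. At 2-fold, 1 member was higher and 0 were lower, against 6.25% and 4.95% of all genes. The 3 other scalings tried put the median of all genes at 0.02 to 0.04 and that of the members at -0.05 to -0.02, with 3 or 4 members lower (Eif3l, Eif2d and Eif4a3l1, and Eif4a1 under the median of ratios). Ratios of members lay between -0.84 and 1.25, with quartiles at -0.22 and 0.36.

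The same comparison was made in the IgG precipitates. The median of the members there was 0.18, against 0.10 over all genes, so it lay above that of all genes, and below it in Caprin-1. In these precipitates 9 members (15.5%) were higher in shCerS4 past 1.5-fold, where 17.3% of all genes were, and 2 (3.45%) were lower, where 11.7% were. At 2-fold, 2 members were higher and 0 lower, against 5.69% and 5.34% of all genes. Under 2 of the other scalings 5 members were higher past 1.5-fold, and under all 3 only 1 was past 2-fold. Shares of all genes past these limits were not counted under those scalings in either precipitate. The comparisons of Caprin-1 and of IgG precipitates share no library. Across the 58 members their ratios correlated at 0.88 (Pearson) and 0.86 (Spearman), against 0.89 and 0.83 over all genes. The sign was the same in both for 45 of the 58 members and for 8517 of all 10283 genes. The 6 members called higher in the Caprin-1 precipitates were all among the 9 called higher in the IgG precipitates (66.7% of the 9), and Eif3l was called lower in both. That overlap holds for scaling to totals, and the like overlap over all genes was not counted. Under the 3 other scalings Eif2s3x stayed past 1.5-fold in Caprin-1 (0.69 to 0.71) but not in IgG (0.53 to 0.56), and Eif1b did in IgG (0.61 to 0.63) but not in Caprin-1 (0.50 to 0.53).

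**Figure D2:**
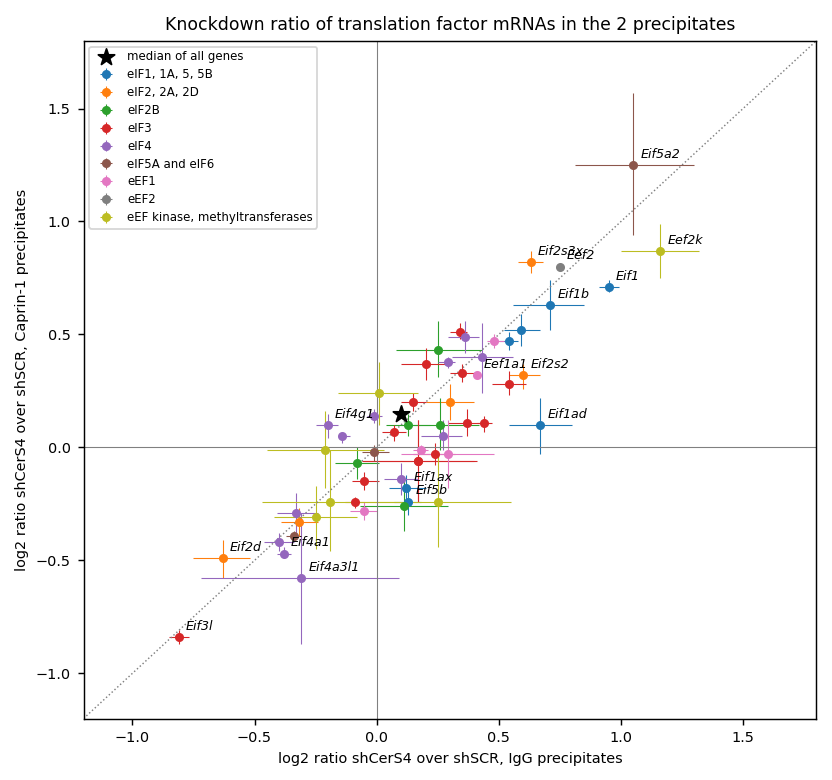
Log2 ratio of shCerS4 over shSCR for the 58 members, in Caprin-1 precipitates (y axis) against IgG precipitates (x axis). Points are coloured by role, lines are 95% counting intervals, the dotted line marks equal ratios and the star is the median of all genes (0.10 in IgG, 0.15 in Caprin-1). Eif5a2, Eef2k, Eif1, Eef2, Eif2s3x and Eif1b are high and Eif3l is low in both.

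Among the start codon and subunit joining factors, Eif1, whose product guards start codon choice, had 1419 CPM in shCerS4 and 865 CPM in shSCR Caprin-1, and 863 CPM in shCerS4 and 447 CPM in shSCR IgG. Both shCerS4 libraries were above their shSCR counterparts. Its log2 ratio of shCerS4 over shSCR was 0.71 (interval 0.69 to 0.74, 1.64-fold) in Caprin-1 and 0.95 (0.91 to 0.99, 1.93-fold) in IgG. The related Eif1b had 67.1 and 43.3 CPM in the shCerS4 and shSCR Caprin-1 precipitates and 52.7 and 32.3 CPM in the shCerS4 and shSCR IgG precipitates. It too was higher in shCerS4 in both, 1.55-fold and 1.63-fold. Eif1ad, which encodes a protein with an eIF1A domain, had 42.2 and 39.4 CPM in shCerS4 and shSCR Caprin-1 and 60.1 and 37.8 CPM in shCerS4 and shSCR IgG. Its ratio was 0.10 (-0.03 to 0.22) in Caprin-1, within counting error of 0, and 0.67 (0.54 to 0.80) in IgG. Eif5b, the GTPase of subunit joining, had 170 and 200 CPM in shCerS4 and shSCR Caprin-1, and 299 and 274 CPM in shCerS4 and shSCR IgG. Its ratios had opposite signs, -0.24 (-0.30 to -0.18) in Caprin-1 and 0.13 (0.07 to 0.18) in IgG. Eif5, which makes eIF2 hydrolyse its GTP, was at 0.47 and 0.54, and Eif1a, for an eIF1A, at 0.52 and 0.59. Over the 7 members of this role the median ratio was 0.47 in Caprin-1 and 0.59 in IgG. Above 0 were 5 and 7 members, against 61.3% and 57.8% of all genes.

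Within the eIF2 group, the 3 subunits of eIF2 did not move together. Eif2s3x, the gamma subunit that binds GTP and the initiator tRNA, had 354 CPM in shCerS4 and 201 CPM in shSCR Caprin-1, and 421 CPM in shCerS4 and 272 CPM in shSCR IgG. It was 1.76-fold and 1.55-fold higher in shCerS4 (log2 ratios 0.82, interval 0.77 to 0.87, and 0.63, interval 0.58 to 0.68). The alpha subunit Eif2s1, whose phosphorylation slows initiation under stress, had 148 and 186 CPM in shCerS4 and shSCR Caprin-1 and 136 and 169 CPM in shCerS4 and shSCR IgG. It lay on the other side, with ratios of -0.33 (-0.39 to -0.27) and -0.32 (-0.39 to -0.24), neither past 1.5-fold. The beta subunit Eif2s2 had ratios of 0.32 (0.26 to 0.37) and 0.60 (0.54 to 0.67), and Eif2a, a separate factor for initiator tRNA, 0.20 and 0.30. Eif2d, a factor that can place tRNA in the ribosome without eIF2, had 79.9 and 113 CPM in shCerS4 and shSCR Caprin-1 and 52.5 and 81.4 CPM in shCerS4 and shSCR IgG. It was lower in shCerS4 in both precipitates, with ratios of -0.49 (-0.58 to -0.41) in Caprin-1, past 1.5-fold under the 3 other scalings, and -0.63 (-0.75 to -0.52) in IgG. The Eif2d locus overlaps Rassf5, and no source gives the reads' strand, so reads of the overlap cannot be told apart.

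The exchange factor eIF2B, which acts on eIF2, differed less between the cells. Its 5 subunit genes had median ratios of 0.10 in Caprin-1, a sign that turned to at most 0 under the 3 other scalings tried, and 0.13 in IgG, and none passed 1.5-fold. Eif2b5, the catalytic epsilon subunit, had 132 and 138 CPM in shCerS4 and shSCR Caprin-1 and 100 and 106 CPM in shCerS4 and shSCR IgG. These differ little, with ratios of -0.07 and -0.08.

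Of the 14 genes for eIF3 subunits, Eif3l stood apart. It encodes a subunit at the edge of the complex, next to the product of Eif3k, and had 484 CPM in shCerS4 and 868 CPM in shSCR Caprin-1, and 344 CPM in shCerS4 and 603 CPM in shSCR IgG. Both shCerS4 libraries were below both shSCR libraries. Its ratios were -0.84 (-0.87 to -0.81, 1.79-fold lower) and -0.81 (-0.85 to -0.77, 1.75-fold lower). No other subunit passed 1.5-fold, and the other 13 lay between -0.24 and 0.51 in Caprin-1 and between -0.09 and 0.54 in IgG. Eif3k had ratios of -0.03 (-0.08 to 0.02) and 0.24 (0.15 to 0.32). Eif3c, one of the core subunits, had the highest ratio of the group in Caprin-1, at 0.51 (0.48 to 0.55), and 0.34 (0.30 to 0.37) in IgG. The medians of the group were 0.09 in Caprin-1, below 0 under the 3 other scalings, and 0.19 in IgG.

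The cap-binding and helicase factors of the eIF4 group were mixed. Eif4a1, the main helicase of the group, had 833 CPM in shCerS4 and 1152 CPM in shSCR Caprin-1, and 682 CPM in shCerS4 and 887 CPM in shSCR IgG. It was lower in shCerS4 in both precipitates, with ratios of -0.47 (-0.49 to -0.44) and -0.38 (-0.41 to -0.35), short of 1.5-fold. Its paralog Eif4a2 lay on the other side of 0, with 0.49 (0.42 to 0.56) and 0.36 (0.29 to 0.42). Eif4a3, the helicase of the exon junction complex, resembled Eif4a1, with 343 and 457 CPM in shCerS4 and shSCR Caprin-1 and 183 and 241 CPM in shCerS4 and shSCR IgG. Its ratios were -0.42 (-0.46 to -0.38) and -0.40 (-0.46 to -0.34). Eif4a3l1, named as an Eif4a3-like gene, had 6.37 and 9.51 CPM in shCerS4 and shSCR Caprin-1 and 4.79 and 5.96 CPM in shCerS4 and shSCR IgG. It may share reads with Eif4a3 and its values are uncertain. Eif4e, the cap-binding protein, had 156 and 150 CPM in shCerS4 and shSCR Caprin-1 and 120 and 100 CPM in shCerS4 and shSCR IgG. Its Caprin-1 ratio of 0.05 (-0.01 to 0.12) did not differ from 0 beyond counting error, and its IgG ratio was 0.27 (0.18 to 0.35). Eif4b, a cofactor of the helicase, had 1411 and 1367 CPM in shCerS4 and shSCR Caprin-1 and 1557 and 1710 CPM in shCerS4 and shSCR IgG. With scaling to totals none of the 12 genes of this group was past 1.5-fold in either precipitate. Eif4a3l1 was past it in Caprin-1 under the 3 other scalings (-0.71 to -0.68), and Eif4a1 under the median of ratios (-0.60).

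The pair that encodes eIF5A, the factor that eases peptide bond formation, was split. Eif5a had 1341 CPM in shCerS4 and 1758 CPM in shSCR Caprin-1, and 793 CPM in shCerS4 and 1006 CPM in shSCR IgG. It was lower in shCerS4 by less than 1.5-fold, with ratios of -0.39 (-0.41 to -0.37) and -0.34 (-0.37 to -0.31). Eif5a2, its less widely expressed paralog, had 11.0 and 4.63 CPM in shCerS4 and shSCR Caprin-1 and 21.9 and 10.5 CPM in shCerS4 and shSCR IgG. It had the highest Caprin-1 ratio of all 58 members, 1.25 (0.94 to 1.57, 2.37-fold), and 1.05 (0.81 to 1.30, 2.07-fold) in IgG. Eif6, which keeps free large subunits apart from small ones, had 469 and 476 CPM in shCerS4 and shSCR Caprin-1 and 260 and 261 CPM in shCerS4 and shSCR IgG. Its levels were nearly the same in the 2 kinds of cell.

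In elongation the translocase and its kinase were higher in shCerS4 together. Eef2 had 12351 CPM in shCerS4 and 7070 CPM in shSCR Caprin-1, and 9638 CPM in shCerS4 and 5721 CPM in shSCR IgG. Both shCerS4 libraries were above both shSCR libraries. Its ratios were 0.80 (0.80 to 0.81, 1.75-fold) and 0.75 (0.74 to 0.76, 1.68-fold). Eef2k, whose product phosphorylates eEF2 and so slows elongation, had 60.7 and 33.2 CPM in shCerS4 and shSCR Caprin-1 and 51.0 and 22.8 CPM in shCerS4 and shSCR IgG. It too was higher in both shCerS4 libraries than in both shSCR libraries, with ratios of 0.87 (0.75 to 0.99, 1.83-fold) and 1.16 (1.00 to 1.32, 2.23-fold). The IgG ratio sums unlike transcript rows of Eef2k. The row with most reads was at 1.82 there and the lesser rows at -2.72 each. Eef1a1, which carries aminoacyl-tRNA, had 16383 CPM in shCerS4 and 13137 CPM in shSCR Caprin-1, and 13478 CPM in shCerS4 and 10163 CPM in shSCR IgG. Its ratios were smaller, 0.32 (0.31 to 0.33) and 0.41 (0.40 to 0.42). The subunits of its exchange factor differed among themselves, with Eef1g at 0.47 and 0.48, Eef1b2 at -0.01 and 0.18, and Eef1d at -0.28 and -0.05. The 5 methyltransferase genes had Caprin-1 ratios of -0.31 to 0.24 and IgG ratios of -0.25 to 0.25, none past 1.5-fold. Of these, Eef1aknmt, whose product methylates eEF1A, had 35.6 and 30.2 CPM in shCerS4 and shSCR Caprin-1 and 30.9 and 30.7 CPM in shCerS4 and shSCR IgG.

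The second question of the design is which mRNAs the Caprin-1 antibody brought down above IgG. The members had a median log2 ratio of Caprin-1 over IgG of 0.26 in shCerS4 cells and 0.38 in shSCR cells, where the medians of all genes were -0.11 and -0.13. In each kind of cell 42 of 58 members (72.4%) were above 0, against 42.8% of all genes in shCerS4 and 42.6% in shSCR. Past 1.5-fold, 14 members (24.1%) were higher in Caprin-1 in shCerS4 cells, where 8.69% of all genes were, and 4 (6.90%) were lower, where 22.6% were. In shSCR cells 13 members (22.4%) were higher, where 11.4% of all genes were, and 5 (8.62%) were lower, where 27.5% were. At 2-fold, 1 member was higher and 2 were lower in shCerS4, against 0.934% and 8.02% of all genes, and 3 were higher and 1 was lower in shSCR, against 1.69% and 13.0% of all genes.

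The order of the members was close in the 2 kinds of cell. The Caprin-1 over IgG ratios of shCerS4 and shSCR cells share no library. Across the 58 members they had Pearson and Spearman correlations of 0.94, against 0.88 for both over all genes. The sign was the same for 52 of the 58 members and for 8830 of all 10283 genes. The calls higher in Caprin-1 shared 10 members, 71.4% of the 14 in shCerS4 and 76.9% of the 13 in shSCR. These were Eef1d, Eif1, Eif2b1, Eif2b2, Eif3f, Eif3h, Eif3k, Eif4a3, Eif5a and Eif6. Eif3a, Eif4g3 and Eif5a2 were called lower in both, 3 of the 4 in shCerS4 and 3 of the 5 in shSCR. The like overlap of calls over all genes was not counted. Reads were scaled to library totals, and 3 other scalings moved the median of all genes to between 0.03 and 0.05 in both kinds of cell. They raised the members by the same amount, which left 19 members higher past 1.5-fold in shCerS4 and 25 or 26 in shSCR. Past 2-fold, 3 or 4 members were then higher in shCerS4 and 10 in shSCR, and 1 was lower in shCerS4. The shares of all genes past these limits were not counted under those scalings, so these counts have no background.

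**Figure D3:**
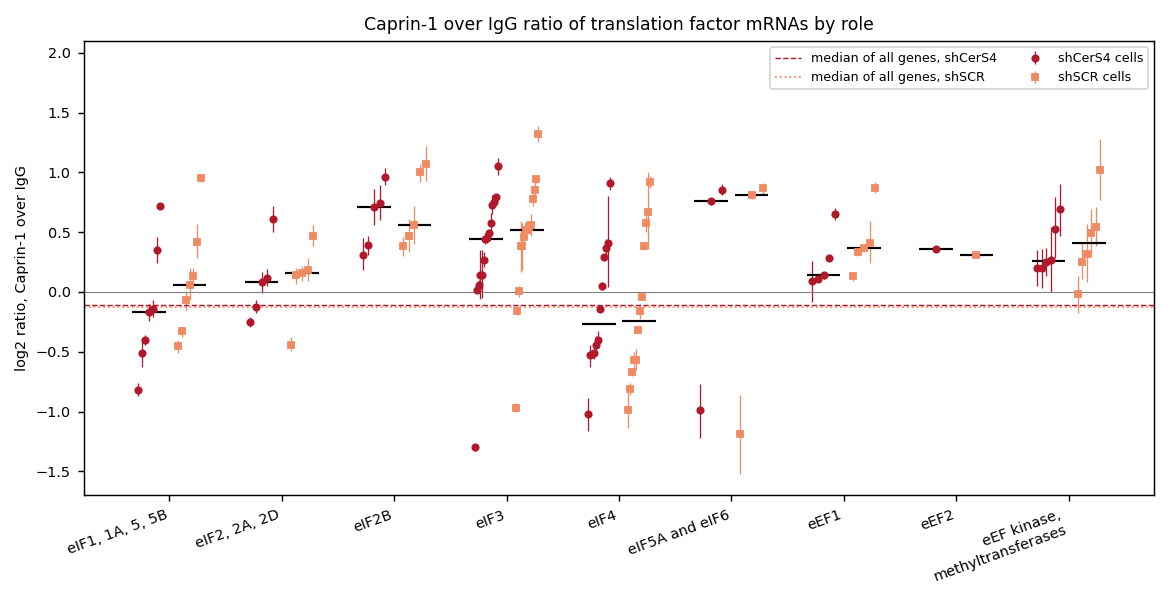
Log2 ratio of Caprin-1 over IgG (y axis) for the 58 members by role (x axis), with shCerS4 cells left of shSCR cells in each role. Points are members with 95% counting intervals, black bars are role medians and horizontal lines are the medians of all genes (-0.11 in shCerS4, -0.13 in shSCR). The eIF2B, eIF3 and eIF5A and eIF6 roles have medians of 0.45 to 0.81, and the eIF4 role has medians of -0.27 and -0.24.

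By role, the 5 genes for eIF2B, summed per symbol, were all above 0 in both kinds of cell, with medians of 0.71 in shCerS4 and 0.56 in shSCR. Eif2b2, the beta subunit, had 219 CPM in Caprin-1 and 112 CPM in IgG of shCerS4 cells, and 205 CPM in Caprin-1 and 103 CPM in IgG of shSCR cells. The Caprin-1 libraries were close to 2 times the IgG libraries, with ratios of 0.96 (0.89 to 1.04, 1.95-fold) and 1.00 (0.92 to 1.07, 1.99-fold). Eif2b1, the alpha subunit, had 45.0 and 27.6 CPM in Caprin-1 and IgG of shCerS4 cells and 53.8 and 25.6 CPM in Caprin-1 and IgG of shSCR cells. Its ratios were 0.71 (0.56 to 0.86) and 1.07 (0.93 to 1.22). The catalytic Eif2b5 was lower in this order, at 0.39 (0.31 to 0.47) and 0.38 (0.30 to 0.46), and the gamma and delta subunits Eif2b3 and Eif2b4 were at 0.74 and 0.31 in shCerS4 and 0.56 and 0.47 in shSCR. The eIF2 group itself had medians of 0.08 in shCerS4 and 0.16 in shSCR, with Eif2d highest at 0.61 and 0.47 and Eif2s3x lowest at -0.25 and -0.44.

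The eIF3 subunit genes had medians of 0.45 in shCerS4 and 0.52 in shSCR and spanned the widest range of any role. Eif3k, a subunit at the edge of the complex, had 256 CPM in Caprin-1 and 124 CPM in IgG of shCerS4 cells, and 261 CPM in Caprin-1 and 105 CPM in IgG of shSCR cells. It was the highest of all 58 members in both, with ratios of 1.05 (0.98 to 1.12, 2.07-fold) and 1.32 (1.25 to 1.39, 2.49-fold). Eif3h, a subunit with an MPN domain, had 782 and 453 CPM in Caprin-1 and IgG of shCerS4 cells and 926 and 483 CPM in Caprin-1 and IgG of shSCR cells. It was 1.73-fold and 1.92-fold higher in Caprin-1, and Eif3f, its partner in the complex, was 1.68-fold and 1.71-fold higher. At the other end lay Eif3a, the largest subunit, with 547 CPM in Caprin-1 and 1346 CPM in IgG of shCerS4 cells, and 508 CPM in Caprin-1 and 992 CPM in IgG of shSCR cells. It was 2.46-fold lower in Caprin-1 in shCerS4 (-1.30, interval -1.33 to -1.27) and 1.95-fold lower in shSCR (-0.97, interval reaching -0.93). Eif3b and Eif3c, which with Eif3a encode core subunits, were near 0, at 0.06 and 0.02 in shCerS4 and 0.01 and -0.16 in shSCR, and the last of these turned above 0 under other scalings. Eif3d, Eif3e, Eif3g, Eif3i and Eif3m lay between 0.27 and 0.73 in shCerS4 and between 0.46 and 0.85 in shSCR. Eif3l, the subunit lower in shCerS4 cells, was above 0 in both, at 0.49 and 0.52. Eif3j1 and Eif3j2 had the same ratios to 2 decimals, 0.14 and 0.38. They are near-identical copies whose reads may have been divided, so their values are uncertain.

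**Figure D4:**
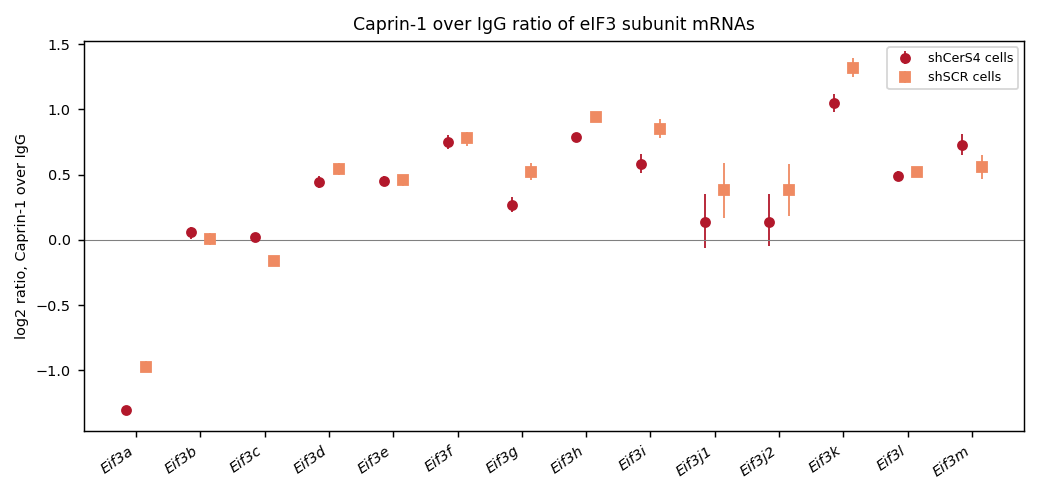
Log2 ratio of Caprin-1 over IgG (y axis) for the 14 eIF3 subunit genes (x axis), with shCerS4 cells (circles) left of shSCR cells (squares) and 95% counting intervals. Eif3k is highest at 1.05 and 1.32, and Eif3a is lowest at -1.30 and -0.97.

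Of the 12 eIF4 genes, 7 lay below 0 in shCerS4 and 8 in shSCR, where 5878 and 5905 of all 10283 genes did. All 3 eIF4G genes were among those below 0 in both. Eif4g1, the scaffold that ties the cap-binding protein to the helicase and eIF3, had 224 and 318 CPM in Caprin-1 and IgG of shCerS4 cells and 209 and 367 CPM in Caprin-1 and IgG of shSCR cells. Its ratios were -0.51 (-0.56 to -0.46) and -0.81 (-0.86 to -0.76). Eif4g2, a relative that does not bind eIF4E, had 743 and 1067 CPM in Caprin-1 and IgG of shCerS4 cells and 674 and 1075 CPM in Caprin-1 and IgG of shSCR cells, which gave -0.52 (-0.55 to -0.49) and -0.67 (-0.70 to -0.64). Eif4g3, a paralog of Eif4g1, had 30.8 and 62.6 CPM in Caprin-1 and IgG of shCerS4 cells and 23.3 and 46.4 CPM in Caprin-1 and IgG of shSCR cells. It was 2.03-fold and 1.99-fold lower in Caprin-1. Eif4enif1, which carries eIF4E into the nucleus and to processing bodies, had 66.6 and 96.4 CPM in Caprin-1 and IgG of shCerS4 cells and 81.5 and 121 CPM in Caprin-1 and IgG of shSCR cells. It lay below 0 as well, at -0.53 (-0.63 to -0.44) and -0.57 (-0.65 to -0.48).

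Eif4a3, Eif4e, Eif4a1 and Eif4a3l1 of the same group lay above 0 in both. Eif4a3 was 1.88-fold and 1.89-fold higher in Caprin-1 (0.91, interval 0.85 to 0.96, and 0.92, interval 0.87 to 0.97). Eif4e followed at 0.37 (0.30 to 0.44) and 0.58 (0.50 to 0.66), and Eif4a1 at 0.29 (0.26 to 0.32) and 0.38 (0.35 to 0.40). Paralogs of these lay on the other side, with Eif4a2 at -0.44 and -0.57 and Eif4e2, which encodes a second cap-binding protein, at -0.40 and -0.16. Eif4b was at -0.14 and -0.32, and the first of these turned above 0 under other scalings, and the shSCR ratio of Eif4e2 moved to 0.00 to 0.02.

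Of the remaining initiation factors, Eif1 was 1.64-fold higher in Caprin-1 in shCerS4 and 1.94-fold higher in shSCR, and Eif1b 1.27-fold and 1.34-fold. Eif5 was below 0, at -0.40 and -0.33, and so was Eif5b, at -0.82 (-0.87 to -0.76) and -0.45 (-0.51 to -0.40). Eif5a and Eif6, which carry the names of initiation factors but act in elongation and on the large subunit, were both above 1.5-fold in both cells. Eif5a was 1.69-fold and 1.75-fold higher in Caprin-1, and Eif6 was 1.81-fold and 1.82-fold higher. Eif5a2 lay opposite to Eif5a, at -0.99 (-1.22 to -0.77) and -1.19 (-1.52 to -0.86).

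For elongation, 12 of the 12 Eef genes compared were above 0 in shCerS4 and 11 in shSCR, against 42.8% and 42.6% of all genes. Eef2 was at 0.36 (0.35 to 0.37) and 0.31 (0.29 to 0.32) and Eef1a1 at 0.28 (0.27 to 0.29) and 0.37 (0.36 to 0.38). Each had at least 5721 CPM in every library, and the counting intervals were narrow. Eef1d, a subunit of the exchange factor of eEF1A, was highest among the eEF1 genes at 0.65 and 0.87, and Eef1e1, of the multi-synthetase complex, was at 0.09 and 0.41. Eef1akmt1, for a methyltransferase that acts on eEF1A, had 21.9 and 13.6 CPM in Caprin-1 and IgG of shCerS4 cells and 22.0 and 15.7 CPM in Caprin-1 and IgG of shSCR cells. It was past 1.5-fold in shCerS4, at 0.69 (0.47 to 0.90), and at 0.49 (0.29 to 0.69) in shSCR. Eef1akmt4, for another such enzyme, had 15.2 and 10.5 CPM in Caprin-1 and IgG of shCerS4 cells and 17.9 and 8.83 CPM in Caprin-1 and IgG of shSCR cells. Its intervals were wide, 0.28 to 0.79 around 0.53 and 0.77 to 1.28 around 1.02, and its locus overlaps a readthrough gene with Ece2.

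Genomic span moved with these ratios. Span here is the length of the gene on the chromosome from RefSeq, introns included, and points of 1 comparison share both libraries. Over all genes with a span (10277), the Caprin-1 over IgG ratio had a Spearman correlation with log span of -0.48 in shCerS4 and -0.54 in shSCR. Over the 58 members it was -0.28 and -0.32. Members were shorter than genes at large, with a median span of 14.9 kb against 23.5 kb. The 29 members at or below 14.9 kb had medians of 0.35 in shCerS4 and 0.42 in shSCR, where the 3639 genes of such span had 0.18 and 0.25. For the 29 members above it the medians were 0.06 and 0.14, where the 6638 longer genes had -0.28 and -0.38. On both sides of 14.9 kb the members' medians were above those of all genes of such span, members included. Exceptions were plain within the group, as Eif3h (78.9 kb) and Eif2b3 (67.5 kb) were long and above 0, and Eif4a2 (6.67 kb) was short and below 0. The part of span in the ratios was not tested.

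**Figure D5:**
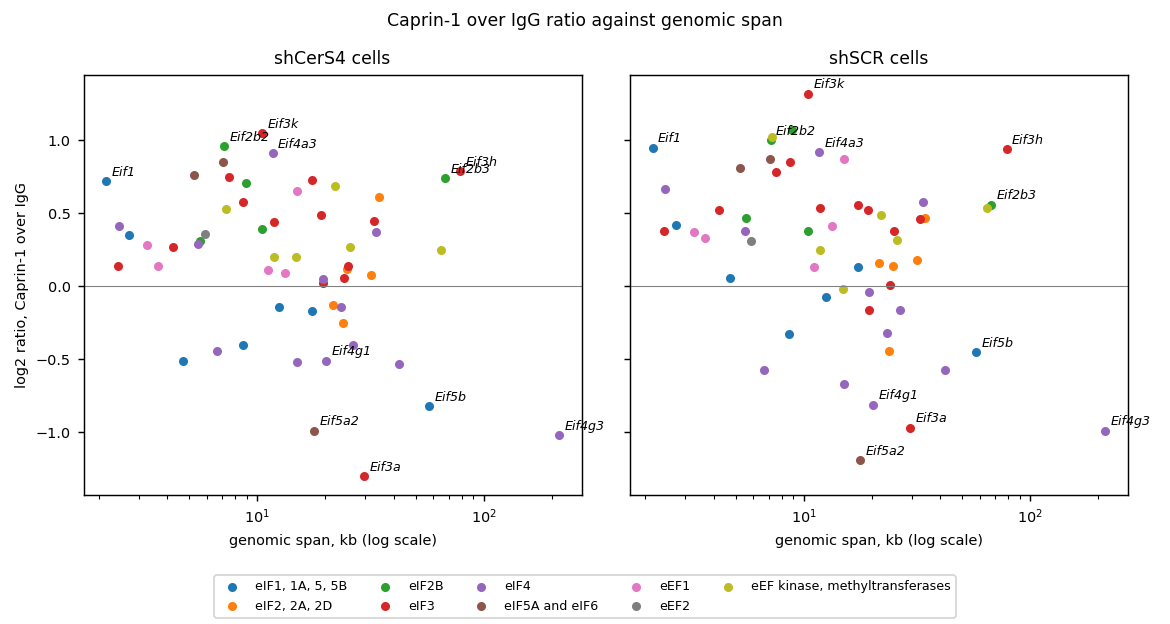
Log2 ratio of Caprin-1 over IgG (y axis) against genomic span in kb (x axis, log scale) for the 58 members, coloured by role, in shCerS4 cells (left) and shSCR cells (right). Eif4g3, the longest at 215 kb, lies at -1.02 and -0.99, and Eif3h at 78.9 kb lies at 0.79 and 0.94.

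The last comparison is whether the excess of Caprin-1 over IgG differed between shCerS4 and shSCR cells, taken as the difference of the log2 ratios, shCerS4 minus shSCR. No member was past 1.5-fold in either direction, where 4.24% of all genes were higher and 2.62% were lower. At 2-fold the counts were 0 as well, against 0.632% and 0.350% of all genes. The members had a median difference of -0.06, against 0.04 over all genes, and 29.3% of members were above 0, against 56.0% of all genes. Cytosolic ribosomal protein genes (81 genes), the proteins on which these factors act, had a median of -0.20, with 77 below 0. The difference rests on all 4 libraries and shares them with every ratio above.

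The lowest differences belonged to Eif1ad at -0.57 (-0.75 to -0.39) and Eef1akmt4 at -0.49 (-0.83 to -0.14). Eif1ad had 42.2 CPM in Caprin-1 and 60.1 CPM in IgG of shCerS4 cells, against 39.4 and 37.8 CPM in Caprin-1 and IgG of shSCR cells, so the IgG library of shCerS4 cells was the one that stood above the other 3. Its locus overlaps Banf1. Eif5b and Eif2b1 followed at -0.36 each (-0.44 to -0.29 and -0.57 to -0.15), and Eif3a was at -0.33 (-0.38 to -0.29). At the other end Eif4g1 had the highest difference, 0.30 (0.23 to 0.37), and Eef1aknmt was at 0.23 (0.01 to 0.44). All 7 genes of the start codon and joining role and all 5 eEF1 genes compared were below 0. So were 41 of the 58 members and 4520 of all 10283 genes. The intervals of Eif1a, Eif1b and Eef1g took in 0. The medians of these roles were -0.24 and -0.19. Eef2 differed by 0.05 (0.04 to 0.07), so its excess over IgG was nearly the same in both cells while its level was 1.75-fold and 1.68-fold higher in shCerS4.

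The pyrimidine starts printed above were set beside these ratios. RefSeq promoter stretches were found for 47 members, and 11 of them (23.4%) held a run of C followed by at least 4 further C or T bases on the gene's strand within 5 bases of an annotated start. The share was 23.8% among the 8292 compared genes with a promoter and 18.3% among all 32851 promoters. The members with a run were Eef1a1, Eif1ad, Eif2b2, Eif2b5, Eif2s3x, Eif3b, Eif3f, Eif3l, Eif4a3l1, Eif4enif1 and Eif4g1. Their median Caprin-1 over IgG ratio was 0.28 in shCerS4 and 0.37 in shSCR, against 0.20 and 0.33 for the members without a run. For shCerS4 over shSCR the medians were 0.10 with and 0.05 without a run in Caprin-1, and 0.13 with and 0.24 without in IgG. Eif2s3x and Eif3l, both with a run, lay at opposite ends of that comparison. Annotated starts can miss the true cap site, so a match or its absence is a description of these letters alone.

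Other genes of translation were listed by role and not by their values. Of 43 compared, 10 were past 1.5-fold higher in shCerS4 and 0 lower in Caprin-1, where 19.2% and 10.9% of all genes were, and 11 were higher and 0 lower in IgG, where 17.3% and 11.7% were. Their median ratios of shCerS4 over shSCR were 0.24 in Caprin-1 and 0.26 in IgG. Ppp1r15a, the stress-induced subunit that directs a phosphatase to eIF2 alpha, had 104 and 21.5 CPM in shCerS4 and shSCR Caprin-1 and 137 and 29.3 CPM in shCerS4 and shSCR IgG. It had the largest ratios of the list, 2.28 and 2.23. Among eIF2 kinases, Eif2ak3, the sensor of stress in the endoplasmic reticulum, was higher in shCerS4 at 1.05 and 0.83. Eif2ak1 was at 0.40 and 0.27, Eif2ak4 at 0.12 and 0.07, and Eif2ak2 was lower, at -0.41 and -0.32. The 9 genes for eIF2 kinases and phosphatase subunits had medians of 0.12 and 0.07, against 0.15 and 0.10 over all genes. Mknk1, a kinase of eIF4E, was at 1.41 and 1.21, and Pdcd4, an inhibitor of the eIF4A helicase, at 0.78 and 1.00. Pabpc1, the cytoplasmic poly(A)-binding protein, had 8938 and 9205 CPM in shCerS4 and shSCR Caprin-1 and 7742 and 8162 CPM in shCerS4 and shSCR IgG, and differed little.

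For the same genes the Caprin-1 over IgG medians were -0.10 in shCerS4 and -0.16 in shSCR, against 0.26 and 0.38 for the members, and other scalings moved them to 0.00 to 0.06. With totals, the calls past 1.5-fold in shCerS4 were 5 higher and 6 lower, where 8.69% and 22.6% of all genes were, and 7 were higher and 13 lower in shSCR, where 11.4% and 27.5% were. The 10 regulators of cap binding compared had medians of -0.37 and -0.42. Eif4ebp2, which blocks eIF4E, was at -1.69 and -1.55, and Larp1, which binds pyrimidine starts, was at -1.01 and -0.94. Eif4ebp1, a second inhibitor of the same kind, was on the other side at 0.62 and 0.71. The 81 cytosolic ribosomal protein genes had medians of 0.08 in shCerS4 and 0.30 in shSCR, and the 9 mitochondrial translation factors 0.21 and 0.42.

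Several symbols sum transcripts with unlike ratios. Of the 19 members with more than 1 row, 12 had at least 2 rows of 5 CPM or more. The 4 rows of Eif4e2 had Caprin-1 over IgG ratios of -1.51 to 0.88 in shCerS4 and -1.32 to 1.45 in shSCR. The 6 rows of Eif4a2 spread over -1.34 to 0.42 and -1.42 to 0.69. The 2 rows of Eif2b4 at that level were at 0.48 and -0.85 in shCerS4 and at 0.41 and 0.83 in shSCR. For shCerS4 over shSCR in IgG the same rows of Eif2b4 were at -0.24 and 2.21. In contrast, the 2 rows of Eif4e gave 0.31 and 0.41 in shCerS4 and 0.58 each in shSCR. The rows carry no transcript names, so which form each stands for was not determined. By RefSeq positions 13 members overlap a protein-coding gene, and without strand the reads of such an overlap cannot be told apart from those of the partner. A small nucleolar RNA gene overlaps 8 members, among them Eef2, Eif4a1 and Eif3a. Whether it adds to their reads was not determined.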

How the data were processed

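RNA of Caprin-1 and IgG precipitates was measured in 4 libraries, 1 per group, by polyA RNA sequencing with a SMARTER kit, as the labels' protocols state. Alignment used mm10 and STAR in Partek, per the submitters' processing notes, which give no versions. The authors deposited CPM values for 24393 transcript rows, in a table whose name calls them raw counts. An added 0.0001 CPM was subtracted from each deposited value and rows were summed per symbol. Depth was estimated from the spacing of values. Below 40 CPM, 80.0%, 79.8%, 81.1% and 81.2% of gene values in shCerS4 Caprin-1, shSCR Caprin-1, shCerS4 IgG and shSCR IgG came within 0.05 reads of an integer, but 29.7%, 28.9%, 30.4% and 31.4% of transcript values did, so reads are estimates. Estimated reads were scaled to totals with 0.5 reads added. Ratios carry exact binomial 95% intervals (a normal approximation for the difference of ratios). Depths of 19.7 to 27.0 M reads put the median distance from a member's ratio to its interval's end at 0.06 to 0.10.

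A mean of 5 CPM or more was required, which left 10283 genes. Of the members, 32 were named by a rule (the member with most reads of each role, the 5 highest and 5 lowest of each comparison and 10 set genes), and others were chosen after their values were seen. Members and lists were chosen with earlier results of these data known. In simulated data of 10283 genes with counting noise alone, the interval took in the ratio set for 95.1% of them between the Caprin-1 precipitates and for 95.2% in the difference of ratios. Alternatives were 3 other scalings (trimmed mean, median of ratios, upper quartile), a filter at 1 CPM, at 20 CPM or absent, an addition of 5 reads and the transcript with most reads. Python 3.11.15, numpy 2.4.6, pandas 2.3.3 and scipy 1.17.1 were used, and 0 columns of no sample were found.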

Additional observations from a re-analysis of the deposited data

Results flagged for a closer look

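The ratio of shCerS4 over shSCR had opposite signs in the Caprin-1 and IgG precipitates for 5 members whose intervals excluded 0 on both sides. Eif5b was at -0.24 in Caprin-1 and 0.13 in IgG, and Eif1ax, for the eIF1A of the X chromosome, at -0.18 and 0.12. Eif4e2 was at -0.14 in Caprin-1 and 0.10 in IgG, Eif4g1 at 0.10 and -0.20, and Eif4b at 0.05 and -0.14. The ratio of Caprin-1 over IgG had opposite signs in shCerS4 and shSCR cells for 3 members under the same limit on intervals, of 6 with opposite signs. Eif1ax was at -0.17 in shCerS4 and 0.13 in shSCR, Eif2s2 at -0.13 and 0.16, and Eif4h, a cofactor of the helicase, at 0.05 and -0.04. The like counts over all genes were not made, so these have no background. Signs agreed between the precipitates for 45 of the 58 members and for 8517 of all 10283 genes. Between the kinds of cell they agreed for 52 members and for 8830 genes. With 1 library on each side the difference was not tested. Under other scalings 1 of the signs turned for Eif4b, Eif4g1, Eif4e2, Eif2s2 and Eif4h. Eif1ax and Eif5b kept their signs, but values came close to 0, with Eif1ax at -0.03 to -0.02 for Caprin-1 over IgG in shCerS4, and both genes at 0.03 to 0.05 for shCerS4 over shSCR in IgG.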

How the results depend on the processing

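No paired analysis was possible because each group held 1 library. Scaling by the trimmed mean, the median of ratios and the upper quartile moved the member medians as a block. For shCerS4 over shSCR in Caprin-1 the median turned below 0, to -0.02, -0.05 and -0.02, against 0.08 with totals, and with the transcript of most reads it was 0.02. In IgG it was 0.08, 0.08 and 0.10. For Caprin-1 over IgG it was 0.42, 0.40 and 0.41 in shCerS4 and 0.54, 0.55 and 0.56 in shSCR. Counts past 1.5-fold moved with it. Members lower in shCerS4 Caprin-1 became 3, 4 and 3, members higher in shCerS4 IgG became 5 under the trimmed mean and 5 under the median of ratios, and members higher in Caprin-1 of shSCR cells became 25, 26 and 26. Past 2-fold, members higher in Caprin-1 became 4, 3 and 4 in shCerS4 cells and 10 under each in shSCR cells. Shares of all genes past these limits were not counted under the other scalings. For the difference of ratios 1 member (Eif1ad) was lower under the median of ratios and the upper quartile, and 1 (Eef1a2) was higher with the 1 CPM filter and no filter. With the transcript of most reads 1 was lower (Eef2k, -0.95) and 1 higher (Eif4g3, 0.83). With the pyrimidine run exactly at the start (2 members), the shSCR median with a run minus that without was -0.16, against 0.04. With at least 6 pyrimidines after the C (6 members) it was 0.15 in shSCR. In shCerS4 it was 0.05 and 0.30 under these settings, against 0.08. The added reads and the 20 CPM filter kept each median and 1.5-fold count within its limits. Depth limits members under about 20 CPM, whose intervals are wide, and nothing here measures variation between cultures.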
